A study of Mus musculus with 24 samples.

Results

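Plcg2 lies on mouse chromosome 8, and its neighbours within about 5 Mb on each side were examined for changes that follow the targeted Plcg2 allele. Genes of the count table were taken where their first exon entry lay on chromosome 8, their smallest start lay between 112500000 and 122650000 (build mm10), and their mean level over 24 libraries was at least 0.2 CPM (counts scaled to a common library size). Plcg2 itself and Irf8 were left out. Of 98 genes in the window, 73 met the rule, out of 24421 genes in the table, and 23 lay below the threshold, 1 of them with no count. Hsd17b2 at 0.202 CPM and Pkd1l2 at 0.283 CPM lay just inside the threshold, and Slc38a8 at 0.188 CPM and Emc8-1190005i06rik at 0.118 CPM just outside. All 73 passed the count filter and were tested among 16316 genes. They are called the flanking genes here, 17 with a start before that of Plcg2 and 56 after it on the plus strand of the chromosome.

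The libraries are bulk RNA-seq of cortex, 6 per genotype and 24 in all, each from 1 mouse at 7.5 months of age. Every genotype was on 5xFAD, transgenes that carry familial Alzheimer's disease mutations and lead to amyloid plaques. The genotypes were Plcg2 knockout (Plcg2KO, 4 males and 2 females), heterozygous Plcg2 knockout (Plcg2HET), Trem2 knockout (Trem2KO) and wild type at both loci (WT), the last 3 with 3 males and 3 females each. Mice without 5xFAD were not analysed here. The labels give neither the exons removed nor the strain in which the allele was made. Mouse numbers in the labels run from 62 to 137 in Plcg2KO and 3 to 14 in Plcg2HET. They run from 40 to 46 in Trem2KO and 1177 to 1190 in WT. These ranges do not overlap, and the labels do not say what they follow. Genotype and any grouping behind the numbers cannot be told apart.

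An allele made in one strain and bred into another keeps a stretch of the donor chromosome around the targeted gene. Genes in that stretch are called passengers, and they can differ between mutant and control mice through donor variants, without any action of the targeted gene. A cassette or a deletion can also disturb nearby promoters. Plcg2 encodes a phospholipase C of immune cells that acts downstream of surface receptors, the microglial receptor TREM2 among them, and the genes around it are a mixed set: enzymes, neuronal surface proteins, transcription factors, ubiquitin ligase subunits and a few genes of myeloid cells. Cyba and Irf8 are 2 such myeloid genes. Cyba encodes the small membrane subunit of the phagocyte NADPH oxidase, and Irf8 encodes a transcription factor of macrophages and microglia.

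Promoters are shown for Plcg2, from whose start distances were counted, for Irf8, and for Cyba, the flanking gene with the smallest p in Plcg2KO against WT. They run from 250 bases before to 50 bases after the start that RefSeq gives, which for Plcg2 is not the first exon base of the count table, and come from RefSeq on GRCm38.p6, the assembly also known as mm10. Capitals mark matches, on either strand, to 3 motifs: GAGGAAGT (a box of the myeloid factor PU.1), TTCNNNGAA (the gamma-interferon activated site) and CACGTG (an E-box). Both of the last 2 motifs read alike on both strands, and no match overlaps another.
Plcg2 promoter (chr8:117498025-117498324, plus strand): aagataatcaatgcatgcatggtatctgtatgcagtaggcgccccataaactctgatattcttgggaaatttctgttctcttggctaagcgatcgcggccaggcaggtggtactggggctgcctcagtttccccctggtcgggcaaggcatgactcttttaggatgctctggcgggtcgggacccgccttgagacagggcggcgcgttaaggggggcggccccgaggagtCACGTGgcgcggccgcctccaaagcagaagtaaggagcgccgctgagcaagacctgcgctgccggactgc
Irf8 promoter (chr8:120736108-120736407, plus strand): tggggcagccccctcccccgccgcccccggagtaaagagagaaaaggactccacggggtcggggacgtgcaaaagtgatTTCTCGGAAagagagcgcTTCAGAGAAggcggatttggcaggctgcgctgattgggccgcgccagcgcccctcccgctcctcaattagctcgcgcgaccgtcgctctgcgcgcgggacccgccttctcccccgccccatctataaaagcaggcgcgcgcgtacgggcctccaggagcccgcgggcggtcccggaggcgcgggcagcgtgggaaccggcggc
Cyba promoter (chr8:122432891-122433190, minus strand): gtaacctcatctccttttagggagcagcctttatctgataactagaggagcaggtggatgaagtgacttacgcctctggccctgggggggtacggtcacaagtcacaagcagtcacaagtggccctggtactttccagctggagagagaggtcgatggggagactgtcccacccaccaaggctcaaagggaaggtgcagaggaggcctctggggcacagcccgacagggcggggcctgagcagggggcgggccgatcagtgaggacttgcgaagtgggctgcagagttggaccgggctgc
The Plcg2 window held 1 E-box, the Irf8 window shown held 2 gamma-interferon activated sites, and the Cyba window held none of the 3 motifs. RefSeq lists another Irf8 promoter (120738389 to 120738688), not shown, which held none of them. Promoters were matched for 48 of the 73 flanking genes. Among their 59 promoters the PU.1 box occurred in 3.39%, against 3.2% of 32851 promoters of all genes, the gamma-interferon activated site in 3.39% against 8.3%, and the E-box in 8.47% against 7.15%. The 2 flanking genes with a PU.1 box were Cbfa2t3 and Nudt7. A match describes these letters only.

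Total counts per library, in M (megacounts), were 49.4 to 81.5 in Plcg2KO, 36.3 to 68.9 in Plcg2HET, 54.8 to 83.0 in Trem2KO and 43.9 to 71.3 in WT. Plcg2 (117498291 to 117635142) checked the labels. It stood at 0.739 to 1.20 CPM in Plcg2KO (median 1.0), 5.89 to 19.8 CPM in the libraries labelled Plcg2HET (median 11.6), 9.32 to 14.7 CPM in Trem2KO (median 11.2) and 7.73 to 15.2 CPM in WT (median 12.6). For Plcg2KO over WT the log2 fold change of Plcg2 was -3.48 (SE 0.20, edgeR adjusted p = 3.73e-12). For Plcg2HET over WT it was 0.02 (95% interval -0.33 to 0.37, edgeR adjusted p = 0.951), so the targeted gene did not show the loss of 1 copy that the label gives, and directions drawn from these 6 libraries are those of libraries labelled Plcg2HET. The summed level of 15 microglial markers was 727 to 1204 CPM in Plcg2KO, 1420 to 2372 CPM in Plcg2HET, 899 to 1284 CPM in Trem2KO and 1309 to 2229 CPM in WT, and 0 of the 15 were at 0 in any group. In Plcg2HET, M3 and F2 had a negative trend of their deviations with GC content and the other 4 libraries a positive one. This trend, a Spearman correlation, was negative in every Plcg2KO library, from -0.566 in F2 to -0.285 in M2. In Trem2KO it ran from -0.0764 in M2, the only negative value, to 0.520 in F3. In WT it ran from -0.511 in M2 to 0.258 in F2.

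Few of the flanking genes changed when Plcg2KO was set against WT, and their share was near that of other genes. In that comparison 7 of the 73 were called (edgeR's quasi-likelihood test, adjusted p under 0.05 over all genes tested), which is 9.59%, against 13.1% of all tested genes and 10.8% of the 766 other tested genes of chromosome 8. Of the 7, 5 were higher in Plcg2KO and 2 lower, against 5.44% of all genes called higher and 7.63% called lower. The median log2 fold change of the 73 was -0.012, against -0.0035 over all genes, and 34 of the 73 values were above 0. The median size of the change regardless of sign was 0.17 in the flanking genes and 0.18 over all genes. Foxc2 and Cyba were the 2 flanking genes past 2-fold, a size passed by 2.98% of all genes. Without WT F1, 4 flanking genes were called.

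**Figure D1:**
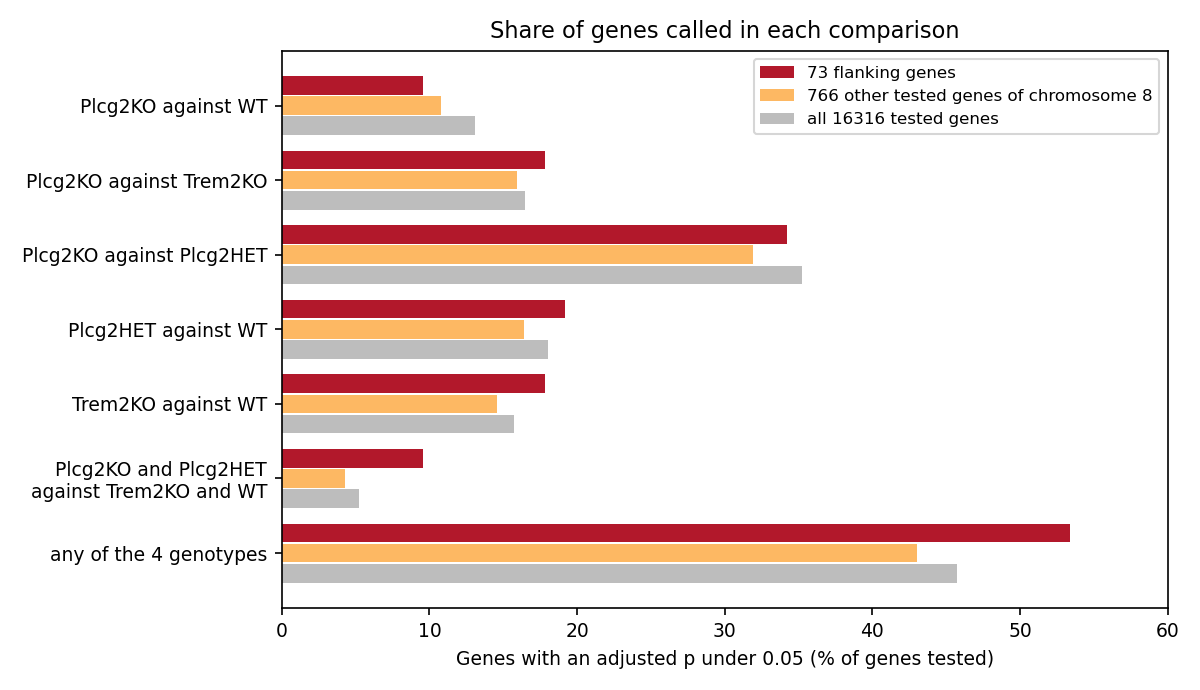
Share of genes with an adjusted p under 0.05 (edgeR, x axis, percent of genes tested) in each comparison, for the 73 flanking genes, the 766 other tested genes of chromosome 8 and all 16316 tested genes. The flanking genes stood at 9.59% in Plcg2KO against WT, where all genes stood at 13.1%, and at 9.59% in Plcg2KO and Plcg2HET against Trem2KO and WT, where all genes stood at 5.2%.

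Few flanking genes kept the libraries of 1 genotype clear of all others. For Plcg2KO, 1 of the 73 did not overlap the other 18 libraries, against 1.01% of all genes. The numbers were 0 flanking genes against 0.674% of all genes for Plcg2HET, 1 flanking gene against 0.496% for Trem2KO, and 0 against 0.313% for WT. With the deposited TPM values, which are also scaled by length, no flanking gene kept Plcg2KO apart.

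The genes described next lie close to Plcg2, 4 before it and 5 after it, and were not called in Plcg2KO against WT. Cmip, which starts 0.24 Mb before Plcg2 and encodes the c-Maf inducing protein, stood at 492 to 669 CPM in Plcg2KO (median 533) and 397 to 550 CPM in WT (median 487). The groups overlapped, and the log2 fold change was 0.19 (SE 0.10, edgeR adjusted p = 0.217). Gcsh, the H protein of the mitochondrial glycine cleavage system, stood at 37.5 to 44.9 CPM in Plcg2KO (median 42.5), 30.0 to 37.1 CPM in Plcg2HET (median 36.3) and 35.8 to 46.9 CPM in WT (median 42.0). Its log2 fold change in Plcg2KO against WT was 0.0095 (SE 0.07, edgeR adjusted p = 0.955).

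Gcsh did differ for Plcg2HET: it was lower than in WT by a log2 fold change of -0.26 (SE 0.07, edgeR adjusted p = 0.0152), and no Plcg2KO library fell below the highest Plcg2HET library. With offsets that remove each library's trend with GC content and length, the log2 fold change of Gcsh in Plcg2HET against WT was -0.13 and not called (adjusted p = 0.1002, edgeR). Pkd1l2, of the polycystin family, had a log2 fold change of -0.58 in Plcg2KO against WT (SE 0.44, edgeR adjusted p = 0.418) at 0.684 CPM or less in every library. 1700030J22Rik, at 7.21 to 11.0 CPM over all libraries, had 0.11 (SE 0.09, edgeR adjusted p = 0.452).

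On the other side of Plcg2, Sdr42e1, of the short-chain dehydrogenase family, lay nearest, at 0.16 Mb. It stood at 8.58 to 11.7 CPM in Plcg2KO (median 10.04), 6.17 to 8.20 CPM in Plcg2HET (median 7.63), 8.46 to 10.7 CPM in Trem2KO (median 9.26) and 7.39 to 10.7 CPM in WT (median 8.70). Plcg2KO and Plcg2HET did not overlap for it, and it was higher in Plcg2KO by a log2 fold change of 0.43 (SE 0.11, edgeR adjusted p = 0.00387), while Plcg2KO and WT overlapped (0.14, SE 0.11, edgeR adjusted p = 0.448). Hsd17b2, an enzyme that inactivates sex steroids, was at 0.655 CPM or less in every library, with a log2 fold change of 0.99 in Plcg2KO against WT that had an SE of 0.59 (edgeR, adjusted p = 0.290). Mphosph6, a cofactor of the nuclear RNA exosome, had -0.09 (SE 0.12, edgeR adjusted p = 0.652). Hsbp1, which encodes a binding protein of heat shock factor, had 0.27 (SE 0.12, edgeR adjusted p = 0.158).

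Cdh13, which encodes the lipid-anchored T-cadherin and starts 0.79 Mb after Plcg2, was at 82.8 to 110 CPM in Plcg2KO (median 87.4), 79.8 to 150 CPM in Plcg2HET (median 124), 93.0 to 111 CPM in Trem2KO (median 103) and 64.1 to 90.6 CPM in WT (median 81.9). Trem2KO lay above WT without overlap, and Plcg2KO overlapped both. Its log2 fold change against WT was 0.20 in Plcg2KO (SE 0.13, edgeR adjusted p = 0.308), 0.58 in Plcg2HET (SE 0.12, edgeR adjusted p = 0.00265) and 0.36 in Trem2KO (SE 0.12, edgeR adjusted p = 0.0469).

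**Figure D2:**
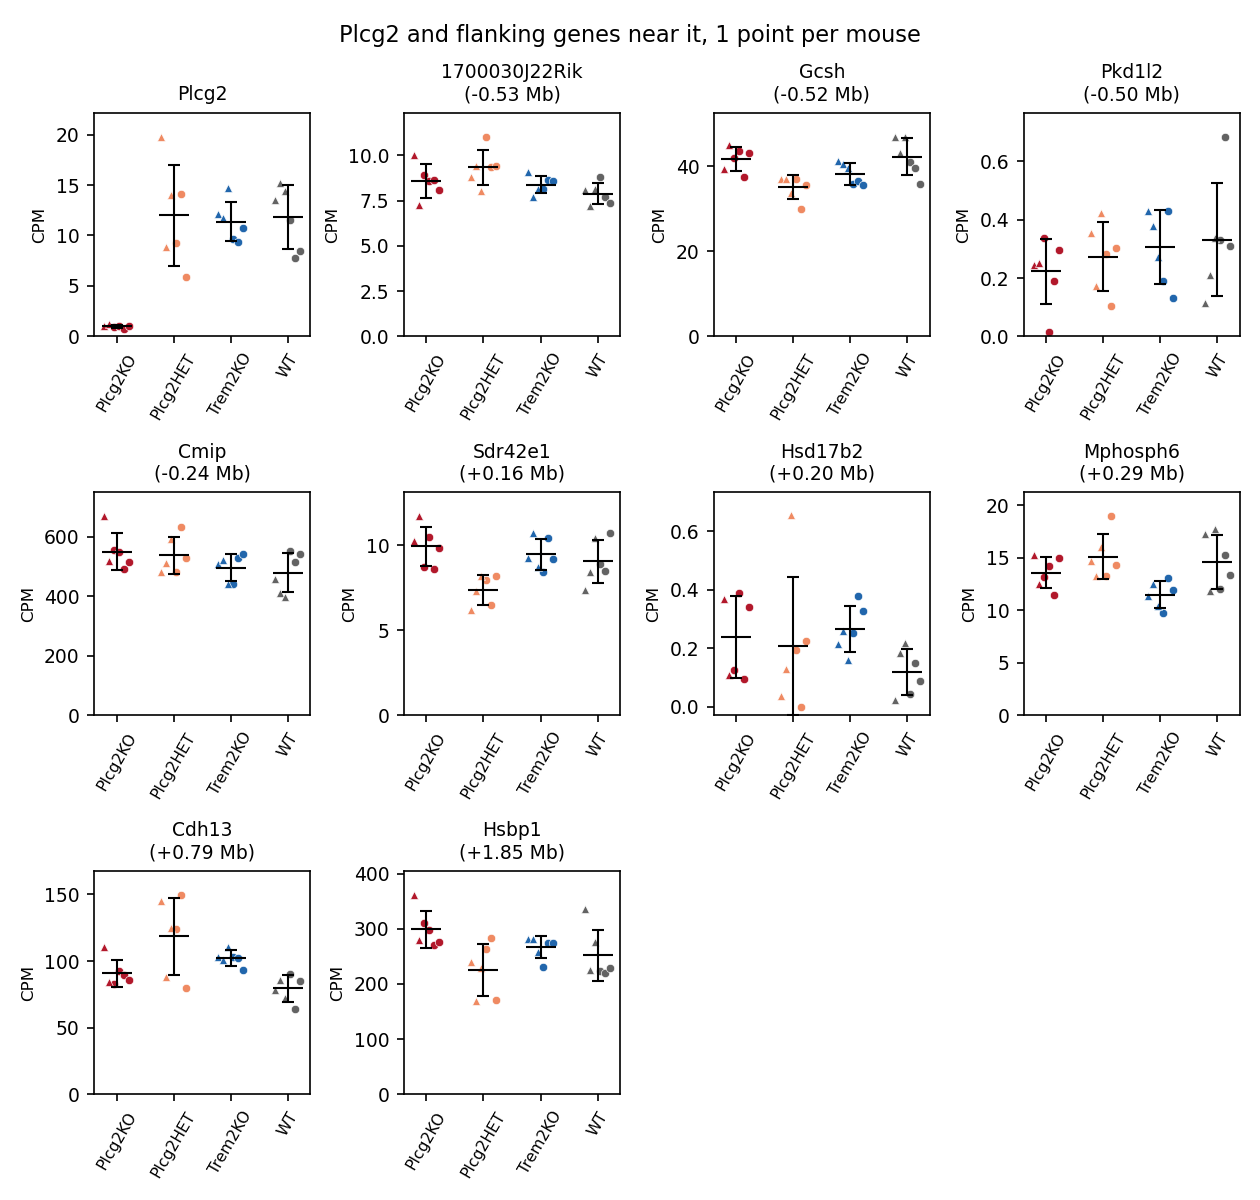
CPM (y axis, from 0) of Plcg2 and of 9 flanking genes near it, 4 before and 5 after, with the start's distance from Plcg2 in brackets. Each point is 1 mouse (circles males, triangles females), and bars give the mean ± SD of 6 mice; Plcg2 is at 0.739 to 1.20 CPM in Plcg2KO, and for Sdr42e1 the Plcg2KO points lie above those of Plcg2HET.

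By distance, the median log2 fold change in Plcg2KO against WT was 0.12 in the 14 flanking genes within 1 Mb of Plcg2, 0.00063 in the 17 between 1 and 2.5 Mb and -0.08 in the 42 farther away. In the same order of classes, 1, 0 and 6 genes were called in this comparison, against 13.1% of all genes, and 0, 5 and 8 in Plcg2KO against Trem2KO, against 16.5%. Plcg2KO against Plcg2HET called 4, 7 and 14, against 35.2% of all genes, and Plcg2HET against WT 2, 2 and 10, against 18%. In Trem2KO against WT, a comparison whose targeted gene lies on another chromosome, 2, 3 and 8 were called, against 15.7%. In Plcg2KO against WT, 3 of 17 were called before Plcg2, all higher in Plcg2KO, and 4 of 56 after it, 2 higher and 2 lower. The genes next to the window on either side were not called in Plcg2KO against WT: Terf2ip had a log2 fold change of 0.27 (edgeR, adjusted p = 0.0859) and Acsf3 one of -0.06 (edgeR, adjusted p = 0.825).

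Among the immune and myeloid genes of the window, 1 of 6 measured was called in Plcg2KO against WT, against 13.1% of all genes. It was Cyba, which fell. Cyba (122424771 to 122432940, minus strand) starts 4.93 Mb after Plcg2. It stood at 5.65 to 9.26 CPM in Plcg2KO (median 7.07), 9.13 to 31.2 CPM in Plcg2HET (median 20.1), 8.30 to 13.1 CPM in Trem2KO (median 10.6) and 11.2 to 36.2 CPM in WT (median 19.6). Plcg2KO did not overlap WT, and Trem2KO did. Cyba was lower than in WT in Plcg2KO, by a log2 fold change of -1.39 (SE 0.22, edgeR adjusted p = 6.47e-05), and in Trem2KO, by -0.95 (SE 0.21, edgeR adjusted p = 0.00299). In Plcg2HET against WT it was -0.0082 (SE 0.21, edgeR adjusted p = 0.985), and between Plcg2KO and Trem2KO -0.44 (SE 0.21, edgeR adjusted p = 0.139). Both of these knockouts were compared with the same WT libraries.

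Microglial markers moved with Cyba: 13 of the 15 were lower in Plcg2KO than in WT, with a median log2 fold change of -0.99, and 12 of 15 in Trem2KO, with a median of -0.78. In bulk cortex, fewer microglia and less RNA per microglia cannot be told apart. Irf8, in the window but not among the 73, was at 6.26 to 10.9 CPM in Plcg2KO (median 7.54), 17.8 to 38.9 CPM in Plcg2HET (median 22.7), 6.65 to 11.7 CPM in Trem2KO (median 9.57) and 14.2 to 30.2 CPM in WT (median 21.2). Irf8 was lower than in WT by -1.29 in Plcg2KO (SE 0.13, edgeR adjusted p = 1.76e-07) and by -1.18 in Trem2KO (SE 0.13, edgeR adjusted p = 9.9e-07). Trem2 lies on another chromosome.

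The mean of the 15 microglial markers was 5.44 in Plcg2KO and 6.35 in WT on log2(CPM + 0.5). Set against that mean in the same library, Cyba stood at -2.53 ± 0.13 in Plcg2KO and -2.01 ± 0.40 in WT (SD, n = 6), a difference of -0.52 (two-sided exact permutation p = 0.0108). Adjusted over the 18 such ratios computed, this p was 0.0216. Cyba had also been the flanking gene with the smallest p in these same libraries. For the remaining immune and myeloid genes of the window, the ratio to the marker mean was higher in Plcg2KO than in WT. The differences in ratio were 0.54 for Cotl1, 1.15 for Maf, 1.15 for Cbfa2t3, 0.89 for Snai3 and 1.01 for Osgin1 (exact permutation p = 0.00216 to 0.00433). The marker mean itself was lower in Plcg2KO, so this ratio rises for any gene that fell less than the markers. These p therefore do not show that the genes themselves rose. The ratio of Cyba in Trem2KO differed from that in WT by -0.22 (exact permutation p = 0.264). Cotl1, which encodes an actin-binding protein abundant in myeloid cells, had the level most like that of Cyba over the 24 libraries among the flanking genes (Pearson r 0.905), followed by Mvd (0.766) and Ctu2 (0.735). These r describe libraries that share genotype and depth.

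Cotl1 itself stood at 47.8 to 62.4 CPM in Plcg2KO (median 58.5), 56.5 to 105 CPM in Plcg2HET (median 89.1), 50.4 to 69.3 CPM in Trem2KO (median 61.0) and 56.3 to 94.3 CPM in WT (median 73.5). The groups overlapped, and its log2 fold change in Plcg2KO against WT was -0.33 (SE 0.13, edgeR adjusted p = 0.094). Like Cotl1, the other immune and myeloid genes besides Cyba were not called in this comparison. Maf, a leucine zipper transcription factor, had a log2 fold change of 0.26 (edgeR, adjusted p = 0.124), and Cbfa2t3, a transcriptional corepressor, had 0.26 (edgeR, adjusted p = 0.112), which the offsets for GC content and length brought past the threshold at 0.24 (edgeR, adjusted p = 0.0470). Osgin1, an oxidative stress response gene, had 0.16 (edgeR, adjusted p = 0.7995), and Snai3, of the Snail family of repressors, 0.0103 (edgeR, adjusted p = 0.991).

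Foxc2, a forkhead transcription factor of vessel and lymphatic development, was the other large change, and it was higher than in WT in all 3 other genotypes. It starts 3.62 Mb after Plcg2 (121116171 to 121118894, plus strand). Its level was 1.19 to 1.75 CPM in Plcg2KO (median 1.35), 1.04 to 3.06 CPM in Plcg2HET (median 1.67), 0.868 to 1.52 CPM in Trem2KO (median 1.24) and 0.296 to 0.942 CPM in WT (median 0.440). Plcg2KO and Plcg2HET did not overlap WT, and Trem2KO overlapped it by 1 library on each side. Against WT the log2 fold change of Foxc2 was 1.34 in Plcg2KO (SE 0.26, edgeR adjusted p = 0.00074), 1.73 in Plcg2HET (SE 0.26, edgeR adjusted p = 0.000178) and 1.16 in Trem2KO (SE 0.26, edgeR adjusted p = 0.00289). Plcg2KO against Trem2KO gave 0.19 with a 95% interval of -0.31 to 0.68.

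Most markers of meningeal fibroblasts were, like Foxc2, higher than in WT in the 3 other genotypes. The summed level of 5 such genes was 78.8 to 89.7 CPM in Plcg2KO, 65.8 to 122 CPM in Plcg2HET, 88.1 to 110 CPM in Trem2KO and 54.5 to 73.6 CPM in WT, with none of the 5 at 0 in any group. Of these 5, 4 were higher than in WT in Plcg2KO, 3 in Plcg2HET and 4 in Trem2KO. Over all genes, 5.44%, 10.9% and 7.56% were called higher in these comparisons. In Plcg2KO against Trem2KO, 0 of the 5 were higher and 2 lower (median log2 fold change -0.33). Of 6 markers of border-associated macrophages, 4 were higher than in WT in each of the 3 genotypes, and their summed level was 29.4 to 34.0 CPM in Plcg2KO, 23.7 to 35.4 CPM in Plcg2HET, 31.1 to 43.2 CPM in Trem2KO and 17.5 to 26.0 CPM in WT. Of 6 endothelial markers, 5 were lower than in WT in Plcg2KO (median log2 fold change -0.74), 2 in Plcg2HET (-0.34) and 0 in Trem2KO (-0.10), and 0 were higher. In the same order, 7.63%, 7.13% and 8.16% of all genes were called lower. The part of these cell types in the Foxc2 result was not tested. Foxf1, a forkhead gene next to Foxc2, had a log2 fold change of -0.40 in Plcg2KO against WT (SE 0.28, edgeR adjusted p = 0.371), and Fendrr, a long noncoding RNA beside Foxf1, had -0.70 (SE 0.43, edgeR adjusted p = 0.309), both at 1.06 CPM or less in every library.

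Of 8 neuronal surface, synapse and channel genes measured, 2 were higher in Plcg2KO than in WT and 0 lower, against 5.44% of all genes called higher and 7.63% lower, and both lay more than 3 Mb before Plcg2. In Trem2KO against WT 3 of the 8 were higher and 0 lower, against 7.56% and 8.16% of all genes. Cntnap4, a contactin-associated protein of inhibitory synapses, starts 4.93 Mb before Plcg2 and stood at 25.8 to 30.9 CPM in Plcg2KO (median 28.5), 19.5 to 29.0 CPM in Plcg2HET (median 25.01), 29.9 to 34.5 CPM in Trem2KO (median 33.1) and 18.1 to 25.4 CPM in WT (median 20.9). Both knockouts lay above WT without overlap, Trem2KO by more. The log2 fold change against WT was 0.39 in Plcg2KO (SE 0.09, edgeR adjusted p = 0.00463), 0.23 in Plcg2HET (SE 0.09, edgeR adjusted p = 0.0862) and 0.61 in Trem2KO (SE 0.09, edgeR adjusted p = 6.41e-05).

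Vat1l, a gene related to the vesicle amine transport protein, was at 96.1 to 107 CPM in Plcg2KO (median 100.5), 69.6 to 91.7 CPM in Plcg2HET (median 78.6), 91.7 to 106 CPM in Trem2KO (median 101) and 65.1 to 96.6 CPM in WT (median 78.7). Plcg2KO and WT overlapped at their edges. Vat1l was higher than in WT by 0.31 in Plcg2KO (SE 0.09, edgeR adjusted p = 0.0174) and by 0.32 in Trem2KO (SE 0.09, edgeR adjusted p = 0.013), with -0.0038 in Plcg2HET (SE 0.09, edgeR adjusted p = 0.983). It overlaps 4933408N05Rik on the other strand, and no source used here gives the strand setting of the counting. Without WT F1 its adjusted p in Plcg2KO against WT was 0.0519 (edgeR).

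The remaining called genes were small changes. Gse1, a transcription and chromatin gene 2.99 Mb after Plcg2 that overlaps Gins2 on the other strand, was at 45.8 to 59.8 CPM in Plcg2KO (median 50.9), 49.1 to 54.4 CPM in Plcg2HET (median 51.7), 42.6 to 65.4 CPM in Trem2KO (median 50.8) and 29.3 to 51.3 CPM in WT (median 42.2). As with Foxc2, the 3 mutant genotypes stood at like levels, and the log2 fold change against WT was 0.36 in Plcg2KO (SE 0.11, edgeR adjusted p = 0.0374), 0.37 in Plcg2HET (SE 0.11, edgeR adjusted p = 0.0245) and 0.37 in Trem2KO (SE 0.11, edgeR adjusted p = 0.0283). With the offsets the value in Plcg2KO was 0.38, still called (edgeR, adjusted p = 0.00161). Those in Plcg2HET and Trem2KO were 0.19 and 0.18, not called (edgeR, adjusted p = 0.0916 and 0.131). Leaving out 1 library at a time ended the call of Gse1 in Plcg2KO against WT 5 times of 24, with an adjusted p of up to 0.105 (edgeR).

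Mvd, the decarboxylase of the mevalonate pathway of cholesterol synthesis, was the other gene lower in Plcg2KO. It stood at 24.6 to 30.8 CPM in Plcg2KO (median 27.5), 28.9 to 46.7 CPM in Plcg2HET (median 34.4), 32.2 to 39.9 CPM in Trem2KO (median 36.1) and 28.6 to 49.3 CPM in WT (median 35.9). Plcg2KO lay below Trem2KO without overlap and overlapped WT. Its log2 fold change was -0.38 against WT (SE 0.12, edgeR adjusted p = 0.0354), -0.35 against Trem2KO (SE 0.12, edgeR adjusted p = 0.0469) and -0.39 against Plcg2HET (SE 0.12, edgeR adjusted p = 0.0142). The call against WT was lost in 8 of 24 fits with 1 library left out (adjusted p up to 0.103, edgeR) and with offsets for GC content and length, where the log2 fold change was -0.17 (adjusted p = 0.191, edgeR). The offsets also ended the calls against Trem2KO, at -0.04, and against Plcg2HET, at -0.02.

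**Figure D3:**
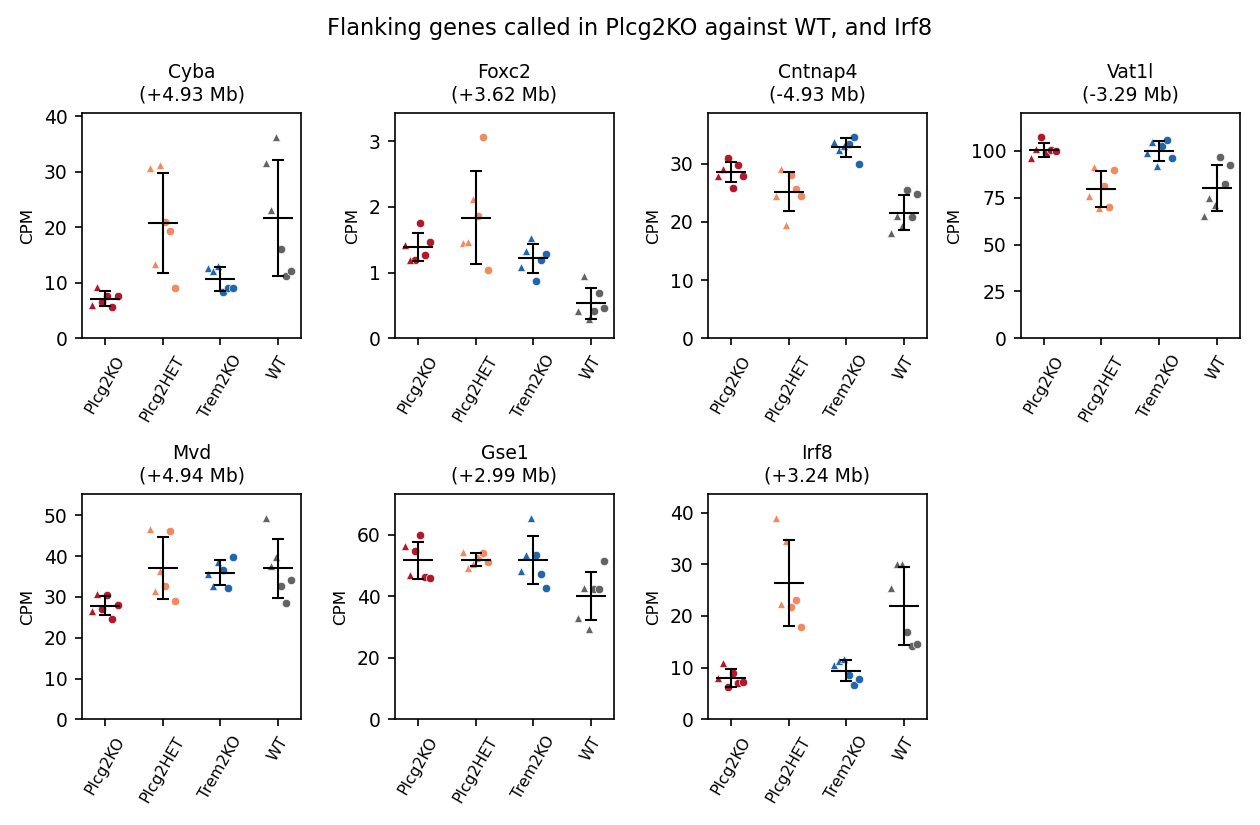
CPM (y axis, from 0) of 6 flanking genes called in Plcg2KO against WT and of Irf8, with the start's distance from Plcg2 in brackets. Each point is 1 mouse (circles males, triangles females) and bars give the mean ± SD of 6 mice; Cyba and Irf8 are low in Plcg2KO and Trem2KO, Foxc2 is lowest in WT, and Cntnap4 is highest in Trem2KO.

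Plcg2KO was next set against Trem2KO, where both groups carried a knockout and 1 of them the Plcg2 allele. Of the 73 flanking genes 13 were called (17.8%), against 16.5% of all genes. Of these, 2 were higher in Plcg2KO, against 7.63% of all genes called higher, and 11 lower, against 8.82% called lower. Without Trem2KO M1, 1 flanking gene was called, and with males or females alone 0 were (edgeR, with 15 and 14 at an unadjusted p under 0.05). The 5 with the smallest p were Banp, Fbxo31, Aprt, Jph3 and Piezo1. Fbxo31, a subunit of an SCF ubiquitin ligase, was at 98.8 to 127 CPM in Plcg2KO (median 118), 134 to 175 CPM in Trem2KO (median 150) and 108 to 145 CPM in WT (median 125). Plcg2KO lay below Trem2KO without overlap, by a log2 fold change of -0.44 (SE 0.12, edgeR adjusted p = 0.0173).

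Aprt, which salvages adenine, was at 11.7 to 18.02 CPM in Plcg2KO (median 17.0), 18.4 to 27.7 CPM in Trem2KO (median 23.2) and 16.4 to 22.7 CPM in WT (median 18.8). Jph3, which tethers the endoplasmic reticulum to the plasma membrane of neurons, was at 148 to 196 CPM in Plcg2KO (median 162), 194 to 224 CPM in Trem2KO (median 202) and 153 to 226 CPM in WT (median 188). Piezo1, a mechanically gated ion channel whose gene overlaps Ctu2 on the other strand, was at 3.90 to 4.98 CPM in Plcg2KO (median 4.30), 5.06 to 9.31 CPM in Trem2KO (median 6.46) and 4.07 to 6.62 CPM in WT (median 5.63). Plcg2KO and Trem2KO did not overlap for Aprt or Piezo1 and overlapped at the edge for Jph3. The log2 fold changes of Plcg2KO against Trem2KO were -0.53 for Aprt (SE 0.14, edgeR adjusted p = 0.0189), -0.35 for Jph3 (SE 0.10, edgeR adjusted p = 0.0197) and -0.65 for Piezo1 (SE 0.19, edgeR adjusted p = 0.0246).

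Base composition moved with this comparison. The flanking genes were richer in G and C than genes at large, with a median of 55.7% in 72 of them against 49.8% over all genes with a value, and over all genes the log2 fold change of Plcg2KO against Trem2KO had a Spearman correlation of -0.644 with GC content. With offsets that remove each library's trend with GC content and length, 6 flanking genes were called, against 7.06% of all genes. Of the 6, 5 were higher and 1 lower in Plcg2KO, against 579 higher and 573 lower of all 16316 genes. Fbxo31, Aprt, Jph3 and Piezo1 were no longer called (log2 fold changes of -0.14, -0.30, -0.03 and -0.39). Banp kept its call, at 0.53 (adjusted p = 0.0138, edgeR). In Plcg2KO against WT the correlation with GC content was -0.316. The same offsets gave 11 flanking genes higher and 1 lower, against 19.4% of all genes called. Of all 16316 genes, 1459 were higher and 1704 lower. Cyba at -1.19 and Foxc2 at 1.54 were still called. The genes called with the offsets included Necab2 (0.35), Hsbp1 (0.30), Slc7a5 (0.27) and Map1lc3b (0.19), named after their values were seen.

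The libraries labelled Plcg2HET, whose Plcg2 level was that of WT, were compared with both. In Plcg2KO against Plcg2HET 25 flanking genes were called (34.2%), against 35.2% of all genes. Of these, 7 were higher in Plcg2KO, against 15% of all genes called higher, and 18 lower, against 20.2% called lower. This split turned with the GC and length offsets, where 14 were higher and 9 lower, against 33.2% of all genes called. Of all 16316 genes, 2491 were then higher and 2930 lower. The median log2 fold change of the flanking genes was -0.12 without the offsets and 0.04 with them. Over all genes the correlation with GC content was -0.501 in this comparison. In Plcg2HET against WT 14 were called (19.2%), against 18% of all genes, with 10 higher, against 10.9%, and 4 lower, against 7.13%. With the offsets Plcg2HET against WT had 9 higher and 7 lower (21.9%), against 22.8% of all genes called (2025 higher and 1689 lower). Without the 2 Plcg2HET libraries of negative GC trend, M3 and F2, a fit chosen after the data were seen, Plcg2HET against WT called 32 flanking genes and 44.2% of all genes, and Plcg2KO against Plcg2HET called 42 flanking genes and 57.9% of all genes. Leaving out 3 libraries rich in the ribosomal RNA precursor Rn45s (above 5% of their counts), Plcg2HET against WT called 3 flanking genes and 4.89% of all genes.

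Taf1c and Galns gave some of the smallest p in Plcg2KO against Plcg2HET. Taf1c, a subunit of the selectivity factor of RNA polymerase I that overlaps Dnaaf1 on the other strand, was at 6.96 to 9.66 CPM in Plcg2KO (median 9.01), 9.98 to 21.8 CPM in Plcg2HET (median 16.8) and 8.29 to 12.5 CPM in WT (median 9.49). Galns, a lysosomal sulfatase, was at 6.20 to 8.96 CPM in Plcg2KO (median 8.45), 7.33 to 19.8 CPM in Plcg2HET (median 14.2) and 8.59 to 12.3 CPM in WT (median 10.2). Plcg2KO and Plcg2HET did not overlap for Taf1c and did for Galns. Plcg2KO was lower than Plcg2HET by a log2 fold change of -0.85 for Taf1c (SE 0.17, edgeR adjusted p = 0.000562) and -0.78 for Galns (SE 0.16, edgeR adjusted p = 0.000878), and Plcg2HET was higher than WT by 0.64 for Taf1c (SE 0.17, edgeR adjusted p = 0.00931) and 0.47 for Galns (SE 0.16, edgeR adjusted p = 0.0417). With the offsets Plcg2KO against Plcg2HET gave -0.44 for Taf1c and -0.46 for Galns, both still called, and Plcg2HET against WT 0.40 for Taf1c, still called, and 0.29 for Galns, no longer called (edgeR, adjusted p = 0.0530).

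The same window in Trem2KO against WT gave 13 called flanking genes (17.8%), against 15.7% of all genes. Of these, 10 were higher in Trem2KO, against 7.56% of all genes called higher, and 3 lower, against 8.16%. Without Trem2KO M1, 7 were called. With the GC and length offsets 8 were higher and 4 lower (16.4%), against 20.2% of all genes called (1557 higher and 1736 lower). The median log2 fold change of the flanking genes was 0.09 without the offsets and 0.03 with them. Besides Cntnap4, Foxc2, Cyba and Vat1l, the genes with the smallest p included Slc7a5, a transporter of large neutral amino acids, at 79.5 to 121 CPM in Trem2KO (median 96.6) and 50.0 to 78.5 CPM in WT (median 67.5). These groups did not overlap, and the log2 fold change was 0.54 (SE 0.12, edgeR adjusted p = 0.00334). Mbtps1, the site protease that activates sterol regulatory factors, was the 1 flanking gene whose Trem2KO libraries lay above all 18 others, and it is named after its values were seen. It stood at 91.8 to 110 CPM in Trem2KO (median 95.8), and at no more than 88.3 CPM in Plcg2KO, 90.8 CPM in Plcg2HET and 86.5 CPM in WT, with a log2 fold change of 0.29 in Trem2KO against WT (SE 0.08, edgeR adjusted p = 0.013).

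Whether mice that carry the Plcg2 allele share differences near it was addressed by the mean of Plcg2KO and Plcg2HET against the mean of Trem2KO and WT. Of the 73 flanking genes 7 were called (9.59%), against 5.2% of all genes and 4.31% of the other genes of chromosome 8. Of these, 4 were higher in the genotypes labelled as carriers, against 2.66% of all genes called higher, and 3 lower, against 2.54% called lower. The 7 were Banp, Cbfa2t3, Foxc2, Maf, Zcchc14, Mthfsd and 9330133O14Rik. Of the 7, 0 lay within 1 Mb of Plcg2, 1 between 1 and 2.5 Mb and 6 farther away. With the GC and length offsets 11 flanking genes were called, against 12.2% of all genes. Among them was Cmc2, 0.61 Mb before Plcg2, at 0.21 (edgeR, adjusted p = 0.0297), named after its values were seen. No share was tested against another, and the carriers include the 6 libraries whose Plcg2 level was that of WT.

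Banp, a DNA-binding regulator of promoters in CpG islands, had the smallest p. It starts 4.45 Mb after Plcg2 (121950492 to 122029260, plus strand) and stood at 14.9 to 25.1 CPM in Plcg2KO (median 21.2), 24.7 to 36.1 CPM in Plcg2HET (median 33.0), 11.7 to 19.6 CPM in Trem2KO (median 14.9) and 16.4 to 24.9 CPM in WT (median 20.2). Plcg2HET was the high group and Trem2KO the low one, with Plcg2KO over the same range as WT. The contrast of the 2 means gave a log2 fold change of 0.57 (SE 0.09, edgeR adjusted p = 0.000376). Against WT it was 0.04 in Plcg2KO (SE 0.12, edgeR adjusted p = 0.880), 0.66 in Plcg2HET (SE 0.12, edgeR adjusted p = 0.000851) and -0.43 in Trem2KO (SE 0.12, edgeR adjusted p = 0.0163). Banp was lower in Plcg2KO than in Plcg2HET by -0.63 (SE 0.12, edgeR adjusted p = 0.000462).

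Cbfa2t3, at the far end of the window, was also highest in Plcg2HET. It stood at 27.8 to 32.7 CPM in Plcg2KO (median 30.3), 32.3 to 43.1 CPM in Plcg2HET (median 37.2), 19.2 to 32.3 CPM in Trem2KO (median 25.05) and 21.97 to 29.9 CPM in WT (median 24.5). Plcg2HET lay above WT without overlap. The contrast of the 2 means was 0.42 (SE 0.07, edgeR adjusted p = 0.00159), with 0.26 in Plcg2KO against WT (SE 0.11, edgeR adjusted p = 0.112) and 0.56 in Plcg2HET against WT (SE 0.11, edgeR adjusted p = 0.00102).

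Maf was a called gene in this contrast where Plcg2KO and Plcg2HET stood at like levels. So was Foxc2, but Foxc2 was higher than in WT in Trem2KO too. Maf starts 1.80 Mb before Plcg2. It stood at 22.7 to 31.8 CPM in Plcg2KO (median 25.01), 22.7 to 35.2 CPM in Plcg2HET (median 26.3), 16.9 to 25.3 CPM in Trem2KO (median 21.6) and 18.4 to 24.4 CPM in WT (median 22.6). Plcg2KO and Plcg2HET each overlapped Trem2KO and WT. The contrast was 0.32 (SE 0.08, edgeR adjusted p = 0.0178), made up of 0.26 in Plcg2KO (SE 0.11), 0.31 in Plcg2HET (SE 0.11) and -0.07 in Trem2KO (SE 0.11), each against WT and none called.

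The 3 genes lower in the carriers were Zcchc14, a zinc finger gene, Mthfsd, a gene named for a synthetase domain of folate metabolism, and 9330133O14Rik, which overlaps Gm20735 on the other strand. Zcchc14 was at 40.5 to 48.5 CPM in Plcg2KO (median 46.8), 26.6 to 47.3 CPM in Plcg2HET (median 33.1), 48.8 to 62.4 CPM in Trem2KO (median 54.7) and 32.7 to 59.7 CPM in WT (median 51.0). Plcg2KO lay below Trem2KO without overlap but within the range of WT. The contrast was -0.37 for Zcchc14 (SE 0.08, edgeR adjusted p = 0.00993), -0.28 for Mthfsd (SE 0.07, edgeR adjusted p = 0.0137) and -0.33 for 9330133O14Rik (SE 0.09, edgeR adjusted p = 0.0358). In Plcg2KO against WT none of the 3 was called, at -0.08, -0.18 and -0.25, and in Plcg2HET against WT all 3 were, at -0.45 (adjusted p = 0.01), -0.34 (0.0122) and -0.58 (0.00419).

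**Figure D4:**
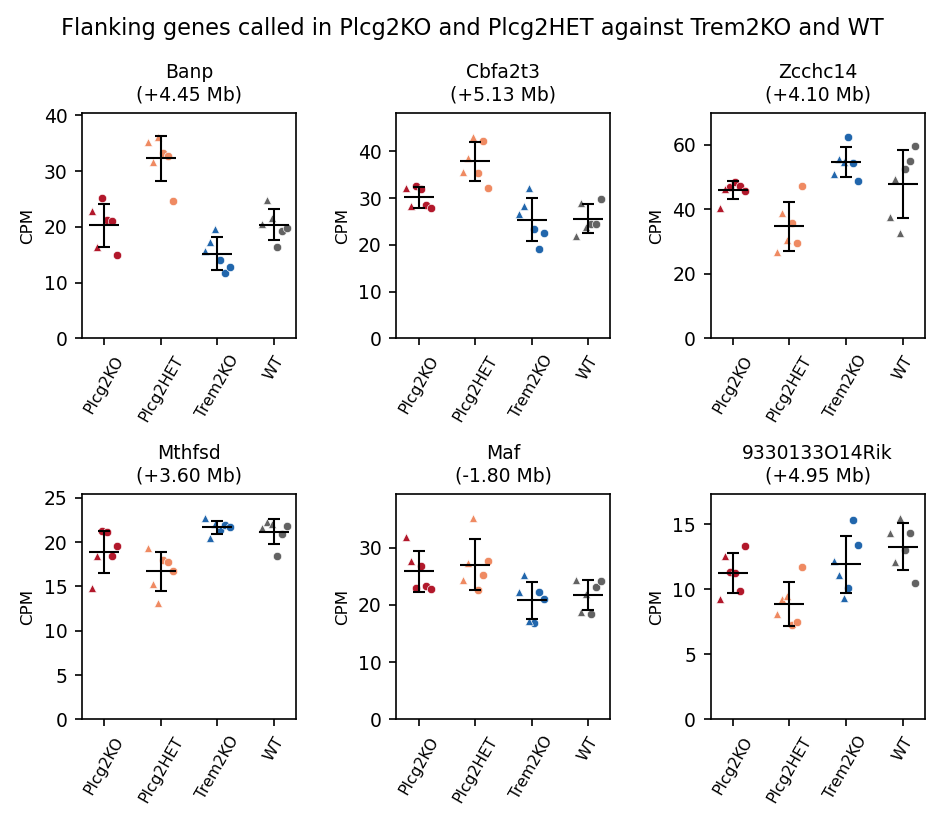
CPM (y axis, from 0) of 6 of the 7 flanking genes called in Plcg2KO and Plcg2HET against Trem2KO and WT (Foxc2 is plotted with the genes called in Plcg2KO against WT), with the start's distance from Plcg2 in brackets. Each point is 1 mouse (circles males, triangles females) and bars give the mean ± SD of 6 mice; the group labelled Plcg2HET lies farther from WT than Plcg2KO does for each gene but Maf, where the 2 are near each other.

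Over all 4 genotypes at once, 39 of the 73 flanking genes were called (53.4%), against 45.7% of all genes and 43% of the other genes of chromosome 8. By distance from Plcg2 these were 6 of 14 within 1 Mb, 11 of 17 between 1 and 2.5 Mb, and 22 of 42 farther away. Banp had the smallest p (edgeR, adjusted p = 1.87e-06), followed by Cyba (2.24e-05), Cntnap4 (0.000119), Foxc2 (0.000129) and Cbfa2t3 (0.000265). Wwox, a large gene 3.06 Mb before Plcg2 that encodes an oxidoreductase, was among the 34 not called, at 22.6 to 27.4 CPM in Plcg2KO and 21.8 to 27.4 CPM in WT.

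By role, 4 of 12 transcription and chromatin genes were higher in the carrier contrast and 0 lower, against 2.66% of all genes called higher and 2.54% lower, with a median log2 fold change of 0.23, against 0.0054 over all genes. The 4 were Banp, Cbfa2t3, Foxc2 and Maf, already named for this contrast. Values by role come from the fit without the GC and length offsets. In that fit the pairs of genotypes differed for these 12 genes. In Plcg2HET against WT 5 were higher and 0 lower (median 0.34), against 10.9% and 7.13% of all genes. Plcg2KO against WT gave 2 higher and 0 lower (median 0.04), against 5.44% and 7.63%. Plcg2KO against Plcg2HET gave 0 higher and 4 lower (median -0.20), against 15% and 20.2%. Of 14 mitochondrial, peroxisomal and metabolic enzymes, 0 were called in the carrier contrast, against 5.2% of all genes. In Plcg2KO against WT 1 of the 14, Mvd, was called, against 13.1% of all genes. None of 9 transporter and membrane traffic genes, 5 replication and cell cycle genes or 4 secreted and matrix genes was called in Plcg2KO against WT. Against 13.1% of all genes, lists this short do not set these roles apart. The sex difference of Plcg2KO against WT was called for 0 of the 73 flanking genes and 0 of all genes (edgeR, interaction), with an unadjusted p under 0.05 for 6 flanking genes and 1271 genes in all. Cyba was one of the 6, with log2 fold changes of -1.98 in females and -0.94 in males (interaction adjusted p = 0.636, edgeR).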

How the data were processed

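The authors deposited whole-number counts per gene with exon coordinates and summed exon lengths, per the file headers, and, per library, expected counts and TPM (an FPKM column was not used). Alignment and counting tools named in the submitters' processing notes are STAR 2.7.10a and featureCounts 2.0.3, with build mm10. How the expected counts and TPM were made, and the strand setting, no source used here says. Of all pairs of libraries, 0 held identical counts.

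Genes with a minimum count of 10 by edgeR's filterByExpr entered a single model of the 24 libraries, with genotype means plus sex (edgeR 4.0.16, R 4.3.3, TMM scaling, robust quasi-likelihood fit), and p-values were adjusted by Benjamini-Hochberg over 16316 genes. CPM are scaled by TMM. The labels give no litter, cage or batch, so p-values measure the spread between the mice sampled. Exact permutation tests used log2(CPM + 0.5) with 6 against 6 libraries. The code was tested on simulated data. GC content came from GENCODE transcripts of the same build.

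The flanking genes, the gene lists by role and the marker lists were chosen with earlier results of these data known. Named genes were all those called in Plcg2KO against WT, the 5 with the smallest p in each other comparison, the 5 nearest on each side of Plcg2, the immune and myeloid genes, and those whose Plcg2KO libraries stood apart, apart from a gene that is not reported here; others are said to be named after their values were seen. Alternatives were RLE size factors, 2 other count filters, leaving out sex, a replicate block, males or females alone, a fit of only the 2 genotypes compared, DESeq2 1.42.0, rounded expected counts, TPM, no Rn45s-rich libraries, GC and length offsets, and each library left out.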

Additional observations from a re-analysis of the deposited data

Results flagged for a closer look

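Within the 4 genotypes, the named genes were checked for a library far from the other 5, by the gap to its nearest neighbour over the range of the group. In 132 groups of 6 libraries, from 33 genes, 9 passed Dixon's 95% critical value, against 6.6 that chance gives at 1 in 20. No cause was tested for any of them.

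Plcg2KO F1 was the outlying library 4 times: Cdh13 at 110.5 CPM and Cmip at 669 CPM were above the other Plcg2KO libraries, and Taf1c at 6.96 CPM and Zcchc14 at 40.5 CPM below them. Elsewhere in Plcg2KO, Galns was low in M1 at 6.20 CPM and Osgin1 low in F2 at 0.266 CPM. In Plcg2HET, Hsd17b2 was high in F3 at 0.655 CPM, in the library with the largest share of Rn45s. In Trem2KO, Galns was high in F3 at 13.8 CPM. In WT, Mthfsd was low in M1 at 18.4 CPM. For 0 flanking genes did the change in Plcg2KO against WT pass the test of a difference between males and females.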

How the results depend on the processing

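The counts of flanking genes called moved with the counts over all genes. Over 77 pairs of an alternative and a comparison, the flanking genes' share called was above that of all genes in 45 and below it in 32. Over the 33 called values of named genes, 1206 settings gave the same direction, with the call lost in 82.

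Each number of flanking genes called is followed by the share of all genes called in the same fit. In Plcg2KO against WT (7 flanking genes, 13.1%), males alone gave 2 (2.25%), females alone 2 (6.1%), only the 2 genotypes 12 (22.3%), GC and length offsets 12 (19.4%), and leaving out Plcg2HET M3 and F2, chosen after the data were seen, 12 (22.7%). In Plcg2KO against Trem2KO (13, 16.5%), the replicate block gave 2 (6.58%), males 0 (0.0672%) and females 0 (0.0362%) (edgeR, 15 and 14 flanking genes at an unadjusted p under 0.05), only the 2 genotypes 36 (42.1%) and the offsets 6 (7.06%). In Plcg2KO against Plcg2HET (25, 35.2%), males gave 5 (9.65%), females 7 (10%), only the 2 genotypes 16 (22.1%), no Rn45s-rich libraries 13 (18.9%) and no M3 and F2 42 (57.9%). In Plcg2HET against WT (14, 18%), males gave 0 (0.0305%, 13 flanking genes unadjusted), females 3 (2.53%), only the 2 genotypes 5 (4.68%), DESeq2 22 (21.5%), no Rn45s-rich libraries 3 (4.89%) and no M3 and F2 32 (44.2%). In Trem2KO against WT (13, 15.7%), males gave 0 (0.44%, 8 unadjusted), females 5 (5.81%), only the 2 genotypes 23 (29.9%) and no Rn45s-rich libraries 8 (11.1%). In the carrier contrast (7, 5.2%), males gave 1 (0.281%), females 0 (0.0181%, 13 unadjusted) and the offsets 11 (12.2%). Over the 4 genotypes (39, 45.7%), males gave 4 (4.59%) and females 10 (12.6%). Fits of 1 sex hold fewer mice. With TPM, 0 genes kept Plcg2KO apart from the other 18 libraries.

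With 1 library left out, the counts were 4 to 10 in Plcg2KO against WT (4 without WT F1, 10.3% of all genes), 1 to 17 in Plcg2KO against Trem2KO (1 without Trem2KO M1, 4.69%), 9 to 24 in Plcg2HET against WT (24 without Plcg2HET M3, 26.7%), 7 to 16 in Trem2KO against WT (7 without Trem2KO M1, 11.7%), and 1 to 2 for separation from the other 18 libraries, where Cyba was added without Plcg2KO F2.

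Log2 fold changes near 0 changed sign in Plcg2KO against WT. Gcsh had -0.000300 with a mean CPM of at least 1, -0.0162 with no sex term, -0.00944 with the replicate block, -0.0931 in females and -0.0217 with expected counts, and -0.0275 to 0.0494 with 1 library left out. Snai3 had -0.0460 with no sex term, -0.0548 in females, -0.00874 with only the 2 genotypes, -0.195 with expected counts and -0.00156 without Plcg2HET M3 and F2, and -0.153 to 0.178 with 1 library left out. Pkd1l2 had 0.174 in females, Osgin1 -0.163 in females, Cmip -0.0336 in males and Sdr42e1 -0.00342 in males. The cause was not tested.

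The replicate codes do not pair the mice: of 33 pairs with the same code, 9 had deviations correlated over 0.1 (-0.440 to 0.344), so the block is an alternative only. Depth limits the genes with a mean under 1 CPM: in Plcg2KO against WT the standard error was 0.59 for Hsd17b2, 0.44 for Pkd1l2 and 0.28 for Foxf1.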
